A study of Caenorhabditis elegans with 4 samples.

Results

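Wide LIN-61 domains are the peaks of 2000 bp or more on chromosomes II, III, IV, V and X in the peak list that the authors deposited for the series as a whole. They were chosen by width alone, taken from the start and end of each peak, and 492 of the 13662 peaks in that list, or 492 of the 10564 on these 5 chromosomes (4.66%), met the rule. The series is a ChIP-seq study of the LIN-61 protein in wild-type Caenorhabditis elegans of strain N2, a mixed population of males and hermaphrodites collected as L3 larvae at 20 degrees Celsius. It has 2 ChIP libraries made with the affinity-purified rabbit polyclonal antibody SDQ3520 against LIN-61, and 2 input DNA libraries made from N2 larvae of the same stage. Whole larvae were used, so binding in different tissues and cell types is pooled in each library.

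LIN-61 is a chromatin protein built of MBT repeats, a fold that binds methylated lysines of histone tails, and it binds histone H3 methylated at lysine 9. That mark labels heterochromatin, which in C. elegans lies mainly over repeats and in the outer parts of the autosomes. LIN-61 is known as a synMuv protein, one of the repressors whose combined loss gives extra vulvae, and as a factor that acts with the HP1 homologue HPL-2 and the methyltransferase MET-2 in silencing repeats. A wide peak is a stretch in which the peak caller found enrichment without a break, in contrast to the narrow peak of a factor bound at a single site.

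The width of the members is a description, since it chose them. It reached 25119 bp, with a median of 2914.5 bp, against a median of 314 bp for the 10072 narrower peaks. Of the members, 266 were under 3 kb wide, 151 were from 3 kb to under 5 kb, 63 were from 5 kb to under 10 kb and 12 were 10 kb or more. Together the domains spanned 1789803 bp, which was 27.8% of all sequence under peaks on these chromosomes and 2.10% of the chromosomes themselves. Since width chose the members, a larger share of sequence than of peaks follows from the rule.

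No gap in width set the members apart at the limit. The narrowest members, all on chromosome III, were 2003 bp (2159009 to 2161011), 2006 bp (12562466 to 12564471) and 2011 bp (1076317 to 1078327). The widest peaks left out were 1998 bp on chromosome IV (1009934 to 1011931), 1998 bp on II (6346091 to 6348088) and 1997 bp on III (2197892 to 2199888). Scores of the 3 peaks inside the limit were 21.29, 35.25 and 92.32, and those of the 3 outside were 71.95, 12.98 and 116.18. The score is the authors' own value for a peak, its quantity is not named, and it is used here only to rank and describe peaks within a list.

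Replicate cover in these 6 peaks overlapped across the limit as well. The first 2003 bp domain was covered over 43.0% of its bases by replicate 1 peaks and 56.2% by replicate 2 peaks, with 1 peak in each list. The 2 other members were covered over 95.5% and 100% in replicate 1 and over 70.5% and 76.7% in replicate 2. The 3 narrower peaks were covered over 99.3%, 60.7% and 98.2% in replicate 1, and over 85.0%, 89.3% and 97.0% in replicate 2.

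Wide domains lay mostly in the autosome arms, on 4 autosomes and in both replicate lists, at a share close to that of narrower peaks. An arm is here the outer part at either end when a chromosome is cut into 3 equal parts. Of the 468 autosomal wide domains, 415 (88.7%, 95% Wilson interval 85.5 to 91.2) had their centre in an arm, against 7777 of 9232 autosomal narrower peaks (84.2%, 83.5 to 85.0) and 84.5% of all autosomal peaks on these chromosomes. Peaks from 1 kb to under 2 kb had a share of 89.4% (87.2 to 91.2). The interval of the members thus overlapped that of the next narrower class and lay just above that of all narrower peaks. The intervals treat neighbouring peaks as independent, which they need not be, and cover counting error only. No test over regions was made, since the regions of a list are not replicates.

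The excess in the arms over narrower peaks was not uniform along the genome. On chromosome III 92.5% of the wide domains and 84.8% of the narrower peaks were in an arm, and on II the shares were 90.3% and 84.2%. Chromosome IV gave 88.1% for wide domains and 84.6% for narrower peaks. Chromosome V went the other way, with 79.5% of 83 wide domains and 83.2% of 2254 narrower peaks. In the replicate lists the same width rule found 368 and 171 wide peaks, of which 90.03% of 351 autosomal ones in replicate 1 and 87.7% of 162 in replicate 2 lay in an arm. Narrower peaks of those lists gave 85.4% in replicate 1 and 87.0% in replicate 2, so the difference was under 1 percentage point in replicate 2.

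The left arm of chromosome III was the densest place. It held 102 wide domains, 22.2 per Mb, and they covered 7.81% of its sequence. The right arm of III followed with 59 domains (12.8 per Mb), and the left arm of IV with 74 (12.7 per Mb). The other arms of II, IV and V held between 25 and 48 domains, or 3.58 to 9.42 per Mb. All 4 autosome centres were sparser, at 1.77 to 2.83 per Mb, and X had 10 domains in its left part, 9 in its centre and 5 in its right part, which is 1.35 per Mb over the whole chromosome. Narrower peaks had the same 3 densest arms. They gave 271.6 per Mb on the left arm of III, 233.97 on its right arm and 225.2 on the left arm of IV. In the autosome centres narrower peaks had 54.2 to 90.8 per Mb. The order of the densest places was thus shared with narrower peaks and not special to wide domains. Wide domains made up 7.56% of all peaks on the left arm of III and 1.55% in the right part of X, the extremes of the 15 parts. Between these the share did not follow density: it was 4.79% in the centre of X, against 3.54% on the denser right arm of V.

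**Figure D1:**
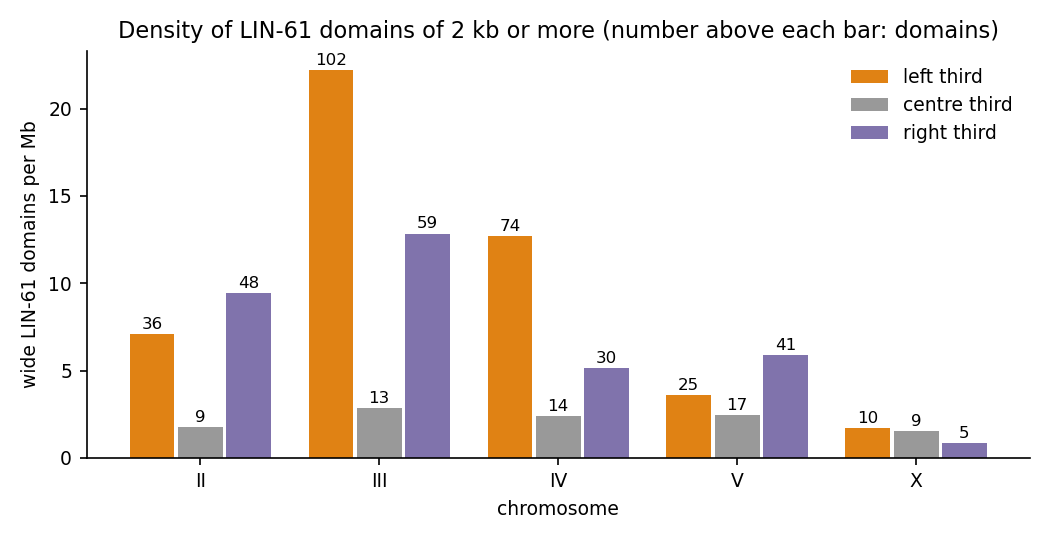
Wide LIN-61 domains per Mb of sequence (y axis) in the left, centre and right part of chromosomes II, III, IV, V and X (x axis), each part being 1 of 3 equal lengths. The number above a bar is the number of domains; the left arm of III stands highest with 102 domains, and the centres of the autosomes hold 9 to 17.

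Score differed between these places too. The median score of wide domains was 81.7 on the left arm of III, 67.2 on the left arm of II, 52.0 on the left arm of IV and 29.59 on the left arm of V. On the right arms it was 47.1 on II, 36.5 on III, 38.7 on IV and 48.6 on V. The autosome centres together had a median of 28.7, against 53.9 for the arms. Median width was 2698 bp in the autosome centres and 2929 bp in the arms, and by part it ran from 2374 bp in the centre of X, on 9 domains, to 3567 bp in the left part of X, on 10. Over all members the median score was 49.93 (quartiles 27.9 and 79.5), against 8.22 (4.68 and 17.8) for narrower peaks and 29.59 for peaks from 1 kb to under 2 kb. Whether the score depends on width by construction is not stated.

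Wide domains lay close to each other. The median gap from a wide domain to the nearest other wide domain, edge to edge, was 8167.5 bp (95% interval of the median 5382 to 10851 bp, from binomial ranks), and the quartiles were 1572 and 63057 bp. That interval treats the gaps as independent, which they are not, since domains nearest to each other share a gap. A second wide domain lay within 10 kb of 260 members (52.8%) and within 2 kb of 137 (27.8%). Narrower peaks lay a median of 39539 bp from the nearest wide domain, and 25.7% of them were within 10 kb of one. At the other extreme, 84 wide domains (17.1%) were over 100 kb from any other. The most remote was the 2577 bp domain of X at 13795000 to 13797576, with 1684377 bp to the nearest.

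Spacing followed the chromosome. The median gap was 3406.5 bp on III, 8768.5 bp on IV, 13267 bp on II, 37483 bp on X and 49142 bp on V. Over the autosomes it was 5118 bp in the arms and 135067 bp in the centres. Within 100 kb of the first or last base of a chromosome lay 18 of the 492 wide domains (3.66%), against 195 of the 10072 narrower peaks (1.94%), while these end stretches made up 1.17% of the sequence. The nearest to an end was the 3122 bp domain of chromosome V at 9707 to 12828.

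Runs of wide domains with gaps of 10 kb or less, called tracts here, held 260 of the 492. There were 96 tracts of 2 or more domains, of which 66 were pairs, 23 had 3 or 4 members and 7 had 5 or more. All 7 of the last kind were on chromosome III, 6 of them on its left arm. Chromosome III had 69.5% of its wide domains in tracts, against 51.7% on IV, 46.2% on II, 33.7% on V and 29.2% on X. These shares fell in the same order as density, at 12.6, 6.75, 6.09, 3.97 and 1.35 wide domains per Mb. A fixed limit of 10 kb is met more easily where domains are many. Whether density accounts for the shares was not tested.

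The largest tract lay on the left arm of III, at 1501111 to 1629307. It held 18 wide domains and 49 narrower peaks in 128197 bp, and all these peaks together covered 76.1% of the span. Its domains were 2094 to 10561 bp wide, with a median of 2843.5 bp, and their scores ran from 49.57 to 157.99, the lowest being close to the median of all members, 49.93. The replicates drew the same tract differently. Replicate 1 peaks covered 91.9% to 100% of each of the 18 domains and left 11 of them as 1 peak, whereas replicate 2 peaks covered 27.03% to 94.0% and left none as 1 peak.

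Of the next 2 tracts by number of domains, the first, at 2110745 to 2173991 on the same arm, held 8 domains in 63247 bp. Replicate 1 peaks covered 49.8% and replicate 2 peaks 40.3% of that span. Its members were unlike each other: the 5 on the left scored 77.20 to 152.17 and the 3 on the right 11.89 to 32.07. On those 3, replicate 1 cover was 43.0%, 50.0% and 54.3%, below the 56.2%, 61.6% and 89.8% of replicate 2. The other tract, at 3005070 to 3038413 on the left arm of III, held 6 domains in 33344 bp, with wide domains alone covering 70.3% of the span, replicate 1 peaks 72.1% and replicate 2 peaks 44.3%. A tract of lower score at 12540199 to 12581084 on the right arm of III also had 6, in 40886 bp, and included the widest domain of the chromosome.

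Some neighbouring domains were separated by very little. Of the 487 pairs of neighbours on a chromosome, 55 had a gap of 1 kb or less and 38 one of 0.5 kb or less. The smallest gap, 52 bp, lay between the X domains at 7353902 to 7357241 and 7357294 to 7361340. A single replicate 1 peak joined both members of a pair in 5 cases and a replicate 2 peak in none. One of the 5 was on X, where the domains at 11474311 to 11476502 and 11476567 to 11478940 were 1 replicate 1 peak of 4458 bp.

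Other peaks of any width, further wide domains among them, also lay close around the wide ones. The nearest peak of any width was a median of 168.5 bp away from a wide domain, against 445 bp from a narrower peak and 223.5 bp from a peak from 1 kb to under 2 kb. In the 5 kb to either side, other peaks covered a median of 37.9% of the sequence next to wide domains, against 16.0% next to narrower peaks and 29.6% next to peaks from 1 kb to under 2 kb. No other peak lay within 5 kb of 31 wide domains (6.30%), 1181 narrower peaks (11.7%) and 61 peaks from 1 kb to under 2 kb (6.31%). A domain of the list was therefore usually flanked by more peaks, not by empty sequence.

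Every wide domain overlapped a replicate 1 peak by 1 bp or more, and 484 overlapped a replicate 2 peak. Both replicates had a peak in 484 of 492 members (98.4%, 95% Wilson interval 96.8 to 99.2), against 45.8% of all peaks of the series list on these chromosomes. For narrower peaks the share was 43.2%, and for those from 1 kb to under 2 kb it was 94.7%. A wide region meets such a rule more easily, and how the series list was made from the libraries is not stated, so nothing is read from this share. The extent of cover says more. Replicate 1 peaks covered 92.0% of the bases of all wide domains and replicate 2 peaks 75.2%.

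Base by base, 71.1% of the wide domain sequence was under a peak in both replicates, 20.9% in replicate 1 alone, 4.11% in replicate 2 alone and 3.87% in neither. The last class, 69319 bp, belonged to the series list and to no replicate peak. In replicate 1 the covered share per domain had a lowest value of 9.98%, a median of 95.2% and a highest of 100%. In replicate 2 the lowest was 0%, the median 78.9% and the highest 100%. The mean of the 2 medians was 87.1% ± 11.5 (SD, n = 2), and cover was higher in replicate 1 for 404 domains and in replicate 2 for 87. Peaks from 1 kb to under 2 kb had median cover of 91.7% in replicate 1 and 71.1% in replicate 2. For all narrower peaks the medians were 76.9% and 27.4%.

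**Figure D2:**
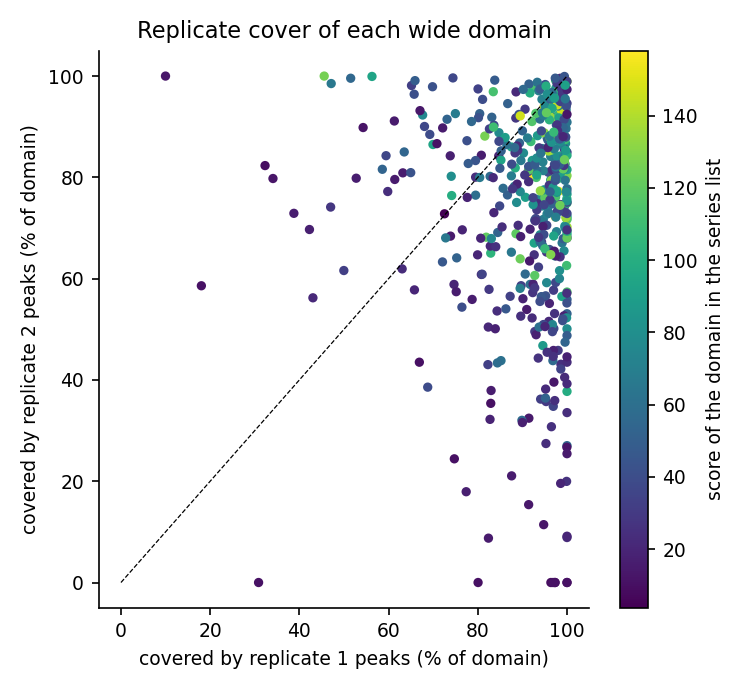
Percent of each wide domain covered by replicate 1 peaks (x axis) and by replicate 2 peaks (y axis), 1 point per domain, coloured by its score in the series list, with a dashed line of equal cover. Most points lie at the right edge below the line, and the 8 points at 0% on the y axis are domains with no replicate 2 peak.

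Which domains were well covered differed between the replicates. Across the 492 domains, the covered share in replicate 1 and that in replicate 2 had a Spearman's rho of -0.01, while the best peak scores of 484 domains gave 0.79 and the numbers of pieces 0.33. These are descriptions across regions that share 2 libraries and 1 set of edges from the series list. Cover of 90% or more was reached by 344 domains in replicate 1 and by 109 in replicate 2. Cover under 50% was found for 12 domains in replicate 1 and 61 in replicate 2. Counts at these 2 limits were not taken over all peaks of the series list, so they describe the members only.

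Domains of low score were the least covered in replicate 2. The members were ranked by score into 4 equal groups of 123. In the lowest, with scores of 3.72 to 27.79, median cover was 91.5% in replicate 1 and 58.6% in replicate 2. In the next groups, from low to high, it was 94.8%, 94.7% and 97.4% in replicate 1 and 81.0%, 82.1% and 83.9% in replicate 2. All 8 domains with no replicate 2 peak belonged to the lowest group. The step in replicate 2 was thus between the lowest group and the rest. Since the series score may draw on the same reads, this is no independent comparison.

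The 8 domains without a replicate 2 peak were 2133 to 3597 bp wide, with scores of 6.96 to 11.52. Of these, 4 lay on the right arm of III, 3 on V and 1 on the left arm of II. On chromosome V, replicate 1 peaks covered 100% of the domain at 17798 to 20608, 96.9% of that at 7809810 to 7811981 and 97.3% of that at 18660880 to 18663649. These 3 were thus almost wholly covered in one library and absent from the list of the other. The domain of III at 12345450 to 12347961 had 30.9% cover in replicate 1, from 2 peaks of 605 and 200 bp, and 69.1% of it was under no replicate peak at all.

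The reverse was rarer. The lowest replicate 1 cover, 9.98%, belonged to the 2534 bp domain at 11033609 to 11036142 in the centre of IV, where replicate 1 had 1 peak of 253 bp and replicate 2 1 peak of 2559 bp over the whole domain. The domain at 1982797 to 1984832 on the left arm of IV had 2 replicate 1 peaks over 18.03% of its bases and 4 replicate 2 peaks over 58.6%. Both had low scores, 13.31 and 10.49.

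Cover fell off towards the edges of the domains in both replicates. The edges are the ends of series peaks, and a replicate peak that ends inside them lowers cover there. A drop thus follows in part from how the steps were set, and the series list may rest on the same reads. When each domain was divided into 20 equal steps, mean cover in the outermost steps was 70.0% on the left and 69.8% on the right in replicate 1, and 38.7% and 38.6% in replicate 2. Between the 5th and the 16th step it was 93.4% to 94.99% in replicate 1 and 77.8% to 82.5% in replicate 2. The first replicate 1 piece started a median of 19 bp inside the left edge of its domain and the first replicate 2 piece 108 bp inside. At the right edge the last pieces ended a median of 16.5 bp and 112 bp short. Replicate 1 pieces passed the left edge in 153 domains and the right edge in 159, and replicate 2 pieces in 24 and 23, so edges of the series list were usually, not always, the outermost ones.

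**Figure D3:**
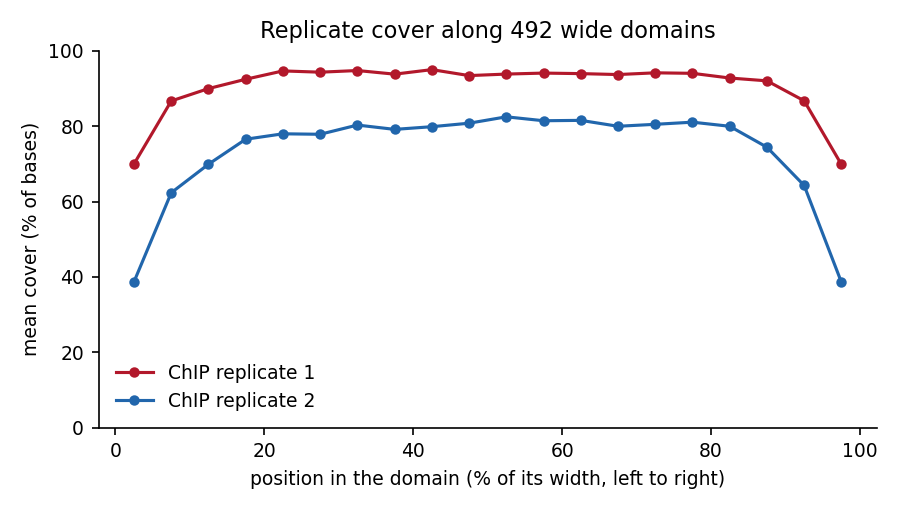
Mean percent of bases covered by replicate peaks (y axis) along the wide domains, each scaled to its own width and read from left to right in 20 steps (x axis), with 1 line per replicate. Both lines are flat in the middle, near 94% in replicate 1 and 80% in replicate 2, and drop at both edges.

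The replicate lists broke most domains into pieces. A piece is a replicate peak that overlaps the domain by 1 bp or more. Replicate 1 had 1.88 pieces per domain on average and replicate 2 had 2.82, or 2.35 ± 0.66 over the replicates (SD, n = 2). There were 2 or more pieces in 262 domains in replicate 1 (53.3%) and in 367 in replicate 2 (74.6%), which averaged 63.9% ± 15.1 (SD, n = 2). Among all peaks of the series list on these chromosomes, which are mostly too narrow to hold 2 peaks, the shares were 7.98% in replicate 1 and 9.44% in replicate 2. For peaks from 1 kb to under 2 kb they were 30.4% in replicate 1 and 39.3% in replicate 2.

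In replicate 1, 230 domains held 1 piece, 150 held 2, 71 held 3, 30 held 4 and 11 held 5 or more. In replicate 2, 8 held none, 117 held 1, 125 held 2, 104 held 3, 68 held 4 and 70 held 5 or more. Replicate 2 had more pieces in 279 domains, replicate 1 in 68, and 145 had equal numbers. The 68 include the 8 domains with no replicate 2 peak, some of them a single replicate 1 peak. In 222 domains both lists had 2 or more pieces, in 145 the break was in replicate 2 alone, in 35 in replicate 1 alone, and 82 domains were 1 peak in each. The 8 domains with no replicate 2 peak are left out of this split.

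**Figure D4:**
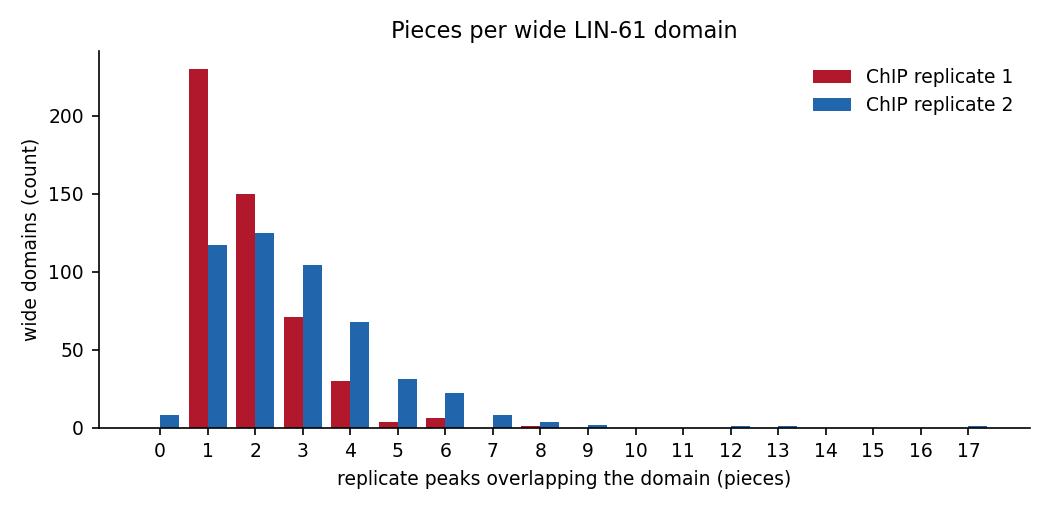
Number of wide domains (y axis) by the number of replicate peaks that overlap them (x axis), with 1 set of bars for each ChIP replicate. Replicate 1 has its highest bar, 230 domains, at 1 piece; replicate 2 has its highest, 125 domains, at 2 pieces and reaches 17.

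Breaks between pieces were mostly short. Replicate 1 had 435 gaps between neighbouring pieces, with a median of 109 bp, quartiles of 73 and 173.5 bp and 81.8% of them at 200 bp or less. Replicate 2 had 902 gaps with a median of 157 bp, quartiles of 84.25 and 302.75 bp, and 59.4% at 200 bp or less. Gaps of 1 kb or more numbered 1 in replicate 1 and 19 in replicate 2, the longest being 1755 and 2746 bp. When replicate peaks within 200 bp were joined, 13.4% of domains stayed broken in replicate 1 and 48.2% in replicate 2, so short gaps made up most of the breakage in replicate 1.

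Many breaks were not at the same place in both libraries. Of the replicate 2 gaps, 692 of 902 (76.7%) were bridged over their whole length by replicate 1 peaks. Of the replicate 1 gaps, 171 of 435 (39.3%) were bridged by replicate 2 peaks. Some breaks coincided: the midpoint of a replicate 1 gap was also outside replicate 2 peaks in 193 of the 427 gaps in domains with a replicate 2 peak (45.2%), against 23.1% of all bases between the first and the last replicate 1 piece of the same domains. In the other direction the midpoint was open in 11.97% of 902 replicate 2 gaps, against 5.95% of bases. Gaps between pieces and the edges contributed about equally to the uncovered sequence: 47.6% of it was between pieces and 52.4% at the edges in replicate 1, and 48.3% and 47.1% in replicate 2, with the remainder in domains without a peak.

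Wider domains had more pieces but not more per length. Mean pieces in replicate 2 were 2.11 for domains under 3 kb, 3.14 from 3 kb to under 5 kb, 4.11 from 5 kb to under 10 kb and 7.67 for 10 kb or more. In replicate 1 they were 1.71, 1.99, 2.13 and 3.08. Per kb of domain, replicate 2 had 0.87, 0.84, 0.63 and 0.56 pieces in the same order, and replicate 1 had 0.70, 0.53, 0.32 and 0.22. A wider domain has room for more pieces. Nearly every domain holds at least 1, so a count per kb tends to fall with width by construction. Nothing further is read from either trend. The longest piece of replicate 2 spanned a median of 50.6% of the domain in the narrowest class and 36.3% in the widest. In replicate 1 it spanned 81.6% and 79.3%.

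A domain was counted as held whole when 1 replicate peak covered 80% or more of it. This was so for 257 domains in replicate 1 (52.2%) and 105 in replicate 2 (21.3%), which averaged 36.8% ± 21.8 (SD, n = 2). Both lists held 75 of them whole, replicate 1 alone held 182, replicate 2 alone 30, and 205 were whole in neither. With the width limit lowered to 1500 bp, 56.3% were held whole in replicate 1 and 23.8% in replicate 2. The share over all peaks of the series list was not taken, so these counts describe the members only. The width rule itself, applied to the replicate lists, gave a similar order. A replicate 1 peak of 2000 bp or more overlapped 323 wide domains (65.7%), and 333 of the 368 such peaks (90.5%) overlapped a wide domain. A replicate 2 peak of that width overlapped 157 wide domains (31.9%), and 170 of the 171 such peaks (99.4%) overlapped one.

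In the widest domain of each chromosome, the replicates ranged from unlike to much alike. On chromosome II, the 25119 bp domain at 15197651 to 15222769, score 89.25, ended 56576 bp from the end of the chromosome. Replicate 1 held it as 1 peak of 25332 bp with 99.5% cover. Replicate 2 had 17 pieces of 147 to 5237 bp over 70.4% of it, the highest number for any member. Its left neighbour, the 6026 bp domain at 15191337 to 15197362, was only 288 bp away and was 1 peak in replicate 1 and 8 in replicate 2. The contrast of a single peak and many pieces was thus shared by the adjoining domain.

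On chromosome III, the 15722 bp domain at 12544426 to 12560147, score 68.63, had 4 pieces in each replicate and cover of 98.0% and 94.1%. On chromosome IV, the 14411 bp domain at 16487726 to 16502136, score 78.78, was among the most broken in both lists. It had 8 pieces in replicate 1, the highest number there, and 13 in replicate 2, with cover of 93.2% and 83.8%. In both lists its left part was the longest piece, 7940 bp in replicate 1 and 5140 bp in replicate 2, and the many short pieces lay in its right part. On chromosome V, the 12733 bp domain at 20407917 to 20420649, score 78.23, had 2 pieces in replicate 1 and 6 in replicate 2.

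The widest domain of X, 14764 bp at 16929576 to 16944339, was the opposite case to that of II. Both replicates held it whole, as 1 peak of 14707 bp in replicate 1 and a 13427 bp peak with 2 short ones of 527 and 585 bp in replicate 2. Cover was 99.6% and 98.2%. It lay 662181 bp from the next wide domain, so that it was also one of the isolated members. The other widest domains held whole were both on the left arm of IV. The 11299 bp domain at 2305984 to 2317282 had 3 pieces in each list, the longest 9552 bp in replicate 1 and 9993 bp in replicate 2. The 9065 bp domain at 4467498 to 4476562 was exactly 1 peak in each, of 8905 and 8630 bp.

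**Figure D5:**
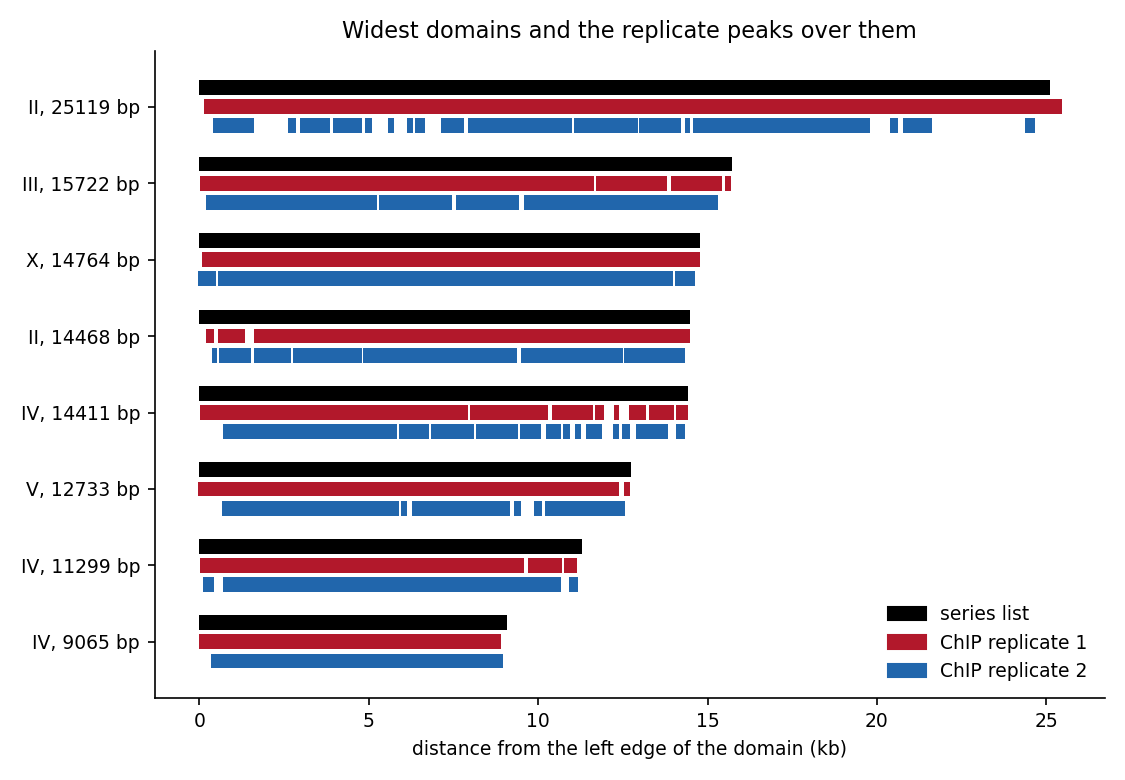
The widest domains (black) with the peaks of ChIP replicate 1 (red) and ChIP replicate 2 (blue) that overlap them, drawn to scale from the left edge of each domain (x axis, kb); rows are named by chromosome and width. The 25119 bp domain of II is 1 red bar over 17 blue ones, while the 9065 bp domain of IV is 1 bar in each.

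Many pieces were found at other widths and scores too. The 14468 bp domain of II at 13283816 to 13298283, score 127.06, had 3 pieces in replicate 1 and 7 in replicate 2, with cover of 95.9% and 93.8%. The 13108 bp domain of IV at 1848229 to 1861336 had 3 pieces in replicate 1 and 12 in replicate 2. The 6246 bp domain of IV at 2440651 to 2446896 had 6 pieces in each, but they covered 59.4% in replicate 1 and 84.3% in replicate 2. On II, the 5702 bp domain at 2876131 to 2881832, score 119.82, had 6 pieces in replicate 1 and 7 in replicate 2. Cover could be lower still, as in the 6617 bp domain of III at 11429480 to 11436096, score 10.05, singled out after its values were seen, where 7 replicate 2 pieces covered 35.4%.

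The 3 members with the highest scores were all on the left arm of III, and none was among the 5 widest members. The domain at 1615117 to 1617482, score 157.99, was 2366 bp wide and had 2 pieces in each replicate, with cover of 91.9% in replicate 1 and 80.6% in replicate 2. In each list 1 long piece, of 2065 bp in replicate 1 and 1521 bp in replicate 2, carried the highest score, 228.88 and 164.94, beside a short weak one. The domain at 1512863 to 1523423, score 152.17, was 10561 bp wide, the widest on that arm. It had 5 pieces in replicate 1 and 7 in replicate 2. The domain at 2146208 to 2151748, also 152.17, was 5541 bp wide and had 2 and 3. Across all members width and score had a Spearman's rho of 0.26 (n = 492 regions of 1 list), so that the strongest domains were only loosely the widest. By width class the median score rose from 43.6 under 3 kb to 84.5 at 10 kb or more.

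The X chromosome held 24 wide domains, and the arms of the autosomes 415. Mean pieces on X were 2.12 in replicate 1 and 2.50 in replicate 2, and median cover was 93.4% and 86.3%. For the autosome arms the means were 1.88 and 2.87 pieces, with median cover of 95.5% in replicate 1 and 78.2% in replicate 2. In the autosome centres, with 53 domains, the means were 1.77 and 2.55 pieces and the medians 91.7% and 76.5%. The gap in cover between the replicates was therefore the smallest of these groups on X, on 24 domains and without a test. In the left part of X, 6 of the 10 domains lay in the first 190209 bp, with scores of 28.39 to 110.76, and the next lay at 1136175.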

How the data were processed

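Each LIN-61 ChIP library has 1 deposited peak list and the series has 1 more. Per the file headers, peaks were called with MACS on build WormBase WS220. Not given in the sources used here are the version, threshold, control, aligner and the way the series list was made. The score deposited with each peak, of unnamed quantity, was used only to rank and describe peaks. The start and end the authors deposited count from 1. Per the labels' protocols, ground larvae were fixed in EGS for 20 minutes and in EGS with formaldehyde for 10 more. The lists give no read counts, so depth is unknown, and no input peak list was analysed here. Whether the replicates were separate cultures is not in the labels, so their spread may be technical. With 2 replicates and 1 list each, values are descriptions, with means ± SD over replicates and no p-value.

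Groups came from the sample titles. A replicate peak overlapping a domain by 1 bp was a piece. A chromosome was taken to end where the rightmost peak of any list ended. Named domains followed a rule: the widest, overall and per chromosome, the highest scores, most pieces, lowest cover, the widest held whole, the largest tracts and those at the limit; X and end domains and the neighbour on II were added after their values were seen. The members and the rules were chosen with earlier results of these data known. Procedures were tested on simulated domains. Genes, repeats and sequence at the domains are not given, because a genome and annotation of WS220 were not used here. Analyses used matplotlib 3.10.9, statsmodels 0.14.6, scipy 1.17.1, pandas 2.3.3 and numpy 2.4.6 under Python 3.11.15.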

Additional observations from a re-analysis of the deposited data

How the results depend on the processing

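The number of wide domains, 492, depends on the limit by construction: 776 at 1500 bp and 226 at 3000 bp. The replicate 2 list alone had 171, replicate 1 alone 368, and joining series peaks within 200 bp gave 684. The arm share, 88.7%, was 80.3% with each arm shortened to 1 of 4 equal parts of the chromosome, and 87.7% to 90.3% in the other alternatives. The median gap to the nearest wide domain, 8167.5 bp, was 5084.5 bp at the 1500 bp limit, 39152.5 bp at the 3000 bp limit, 65178 bp in the replicate 2 list and 12404 bp from centre to centre; fewer domains lie farther apart. Joining replicate peaks within 200 bp lowered mean pieces to 1.44 and broken domains to 30.8%, and raised domains held whole to 63.6%. With only replicate peaks at or above their list's median score, mean pieces were 1.59 and broken domains 43.0%. With 50% cover enough, 64.2% were held whole. Leaving out 1 replicate gave 78.9% to 95.2% for median cover, 1.88 to 2.82 for pieces, 53.3% to 74.6% for broken domains and 21.3% to 52.2% for domains held whole. No paired analysis was possible because the numbers are shared with input libraries that have no peak list here. What depth limits could not be measured, as depth is unknown.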

Other observations

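The values here were chosen after the lists had been compared. Wide peaks of replicate 1 outside any wide domain numbered 35, with a median width of 2340 bp. Of these, 30 lay over 2 or more narrower peaks of the series list, 3 over 1 and 2 over none, and series peaks covered a median of 93.3% of them. So most were stretches that the series list had broken. Replicate 2 peaks covered a median of 47.8%, and 11 of the 35 had none. The widest pair adjoined each other near the right end of chromosome III, at 13588348 to 13592133 (3786 bp) and 13592285 to 13598120 (5836 bp), with 3 and 7 series peaks and replicate 2 cover of 0% and 3.67%. They continued a wide domain at 13584662 to 13588258, one of the 8 without a replicate 2 peak. The 2 without any series peak were on the left arm of III, at 2077655 to 2079849 and 2497165 to 2500081, and neither had a replicate 2 peak.

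Domains with low replicate 2 cover were found in most places, with the right arm of III among the highest. Cover under 50% was found for 13 of its 59 domains (22.0%), for 6 of 25 on the left arm of V (24.0%) and for 7 of 102 on the left arm of III (6.86%). The centres of V (4 of 17, 23.5%), X (2 of 9, 22.2%) and IV (3 of 14, 21.4%) had similar shares to the right arm of III. No such domain was in the centre of II or in the left and right parts of X. In the tract of 4 domains at 11658565 to 11687667 on the right arm of III, replicate 1 peaks covered 88.6% of the span and replicate 2 peaks 20.7%. Replicate 1 held each of these domains as 1 peak, while replicate 2 cover was 71.5%, 8.88%, 19.97% and 19.6% from left to right. The only wide replicate 2 peak outside all wide domains was 2213 bp, at 18174491 to 18176703 on V, where the series list had 2 peaks, the wider of 1921 bp.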
